A study of Mus musculus with 2 samples.

Results

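The genes described here are those of the Bcl2 family, the caspases and the p53 pathway core, in cultured astrocytes of the mouse dentate gyrus (DG). They were chosen by a rule on the gene symbol, which was set with earlier results of these data known. The rule took every symbol that starts with Bcl2, every numbered caspase, and Bax, Bak1, Bok, Bid, Bad, Bik, Bmf, Bbc3, Pmaip1, Mcl1, Apaf1, Birc2, Birc3, Birc6, Xiap, Diablo, Fas, Fadd, Cflar, Trp53, Mdm2 and Mdm4. It found 43 of the 16302 genes listed in at least one library, and 37 of the 43 reached 1 FPKM in at least one library. FPKM is the number of sequenced fragments of a gene scaled for its transcript length and for the size of the library, so that levels can be compared between genes of different length.

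The study compared DG astrocytes of wildtype (WT) mice with those of Beta-arr1 knockout (β-arr1 KO) mice, both of strain C57BL/6 in the labels (a C57BL/6J background by the methods), to find genes whose transcription depends on β-arr1. β-arr1 is an arrestin that scaffolds receptor signalling and can enter the nucleus. RNA came from cells grown from the adult DG in serum-containing medium, and the cDNA libraries were described as pooled, from several mice in each group. The knockout is carried by all cells of the animal, and by the methods the mice were littermates or came from lines bred separately as WT and KO. With 1 library per genotype there was no replicate check, no error between cultures and no test of genotype. Arrb1, which encodes β-arr1, was at 7.62 (WT) and 2.72 FPKM (KO), a ratio of 0.358. Y-linked transcripts were listed for 4 of 4 genes in KO and for 0 of 4 in WT, so that sex and genotype cannot be told apart in these libraries.

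In the mitochondrial route to apoptosis, Bax and Bak1 open pores in the outer mitochondrial membrane. Anti-apoptotic proteins such as Bcl2, Bcl2l1 (Bcl-xL) and Mcl1 hold them in check, and BH3-only proteins relieve that check. Released cytochrome c assembles Apaf1 and caspase 9 into the apoptosome, which activates the executioner caspases. Death receptors such as Fas reach the same executioners through Fadd and caspase 8. The transcription factor p53 induces several of these genes, and its ubiquitin ligase Mdm2 is both its target and its inhibitor.

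A gene was counted as changed when its ratio of KO vs. WT was above 3/2 or below 2/3, the limits that the study used. Of the 37 genes, 6 were past these limits (16.2%), and among all 12646 genes analysed the share was 17.8%. All 37 were listed in both tables, and among all genes so listed the share was 14.6%. The share among these genes was thus near that of the whole table. The study reported a smaller share of changed genes at the same limits. Here an analysed gene absent from either library counted as changed, and how the study treated such genes is not stated. The share of 14.6% among genes listed in both tables was also larger than that of the study. The reason for the difference was not tested. Bcl2a1d and Casp12 were above 3/2, where 9.56% of all genes were found. Bbc3, Birc3, Casp4 and Casp6 were below 2/3, where 8.28% of all genes were found. The remaining 31 genes lay within the limits, 22 of the 37 between 0.833 and 1.2. At 5 FPKM or more, 4 of 31 were past the limits, and 12.5% of all genes were. With limits of 2 and 1/2, Bcl2a1d, Casp4 and Casp6 were past them, and 9.20% of all genes were. The median log2 ratio was -0.004 over the 37 genes and 0.019 over all genes listed in both libraries, and the median size of the log2 ratio was 0.215 and 0.186.

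**Figure D1:**
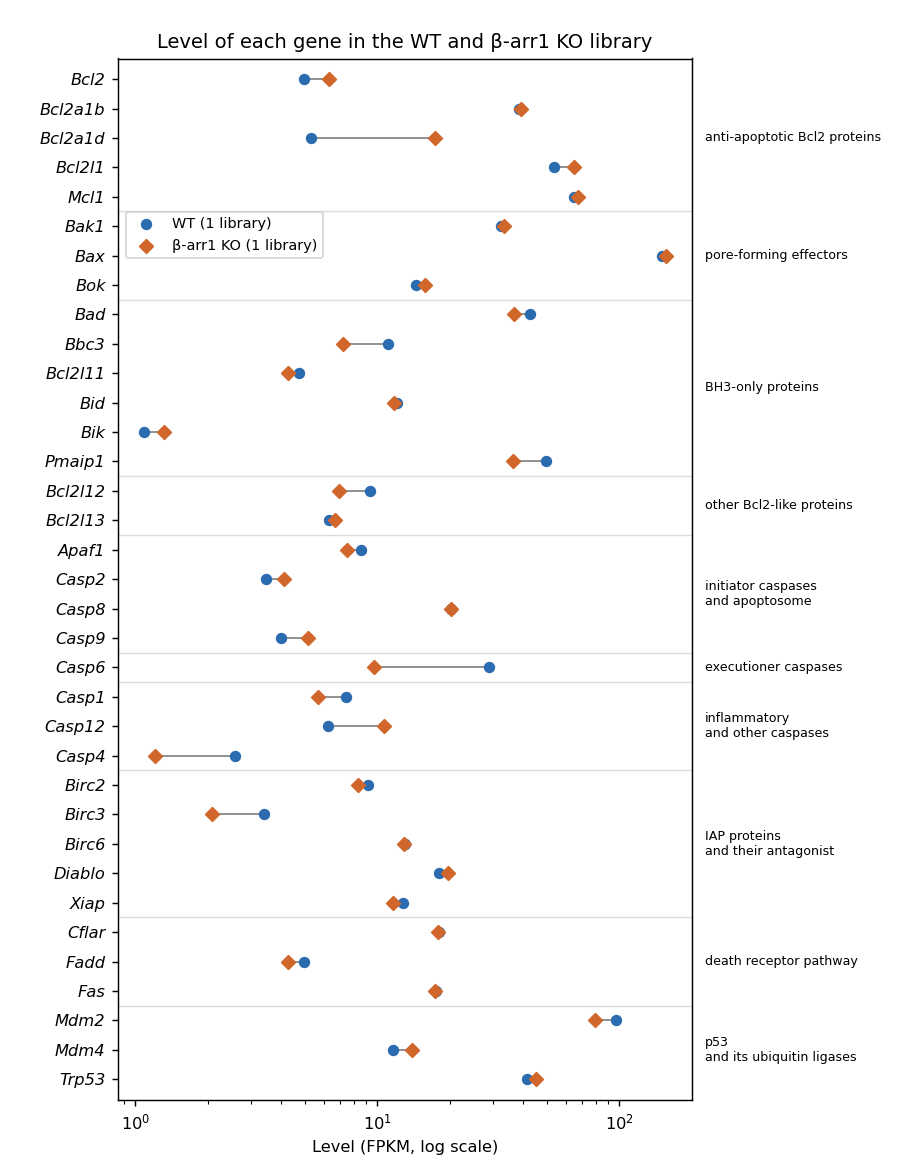
Level of the 35 genes described here in FPKM (x axis, log scale) in the WT library (blue circles) and the β-arr1 KO library (orange diamonds), 1 library each, grouped by role. Most pairs of points lie close together, Bax is the highest at 150 and 155 FPKM, and Casp6 and Bcl2a1d have the widest gaps.

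The depth behind a value was estimated from the lowest values, which fall on steps of 1, 2 or 3 fragments, and corresponded to 9.38 M mapped fragments in WT and 9.52 M in KO. From the fragments so estimated, a 95% interval of each ratio was computed (exact Clopper-Pearson). These intervals cover counting error only and take the same transcript length in both libraries. The first and last base of a gene's row differed between the tables for 15 of the 37 genes, and 5 of the 6 changed genes were among these. Of the 22 genes whose bounds did not differ, 1 was changed (Casp4), and among all 7338 such genes the share was 13.8%. The interval left out 1 for 8 of these 22 genes, Bcl2l1, Casp9 and Trp53 above 1 and Bad, Pmaip1, Bcl2l12, Apaf1 and Casp4 below 1. It did so for 36.5% of all 7126 genes with unchanged bounds and an interval, 19.6% above 1 and 16.9% below 1, against 3 and 5 of these 22.

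**Figure D2:**
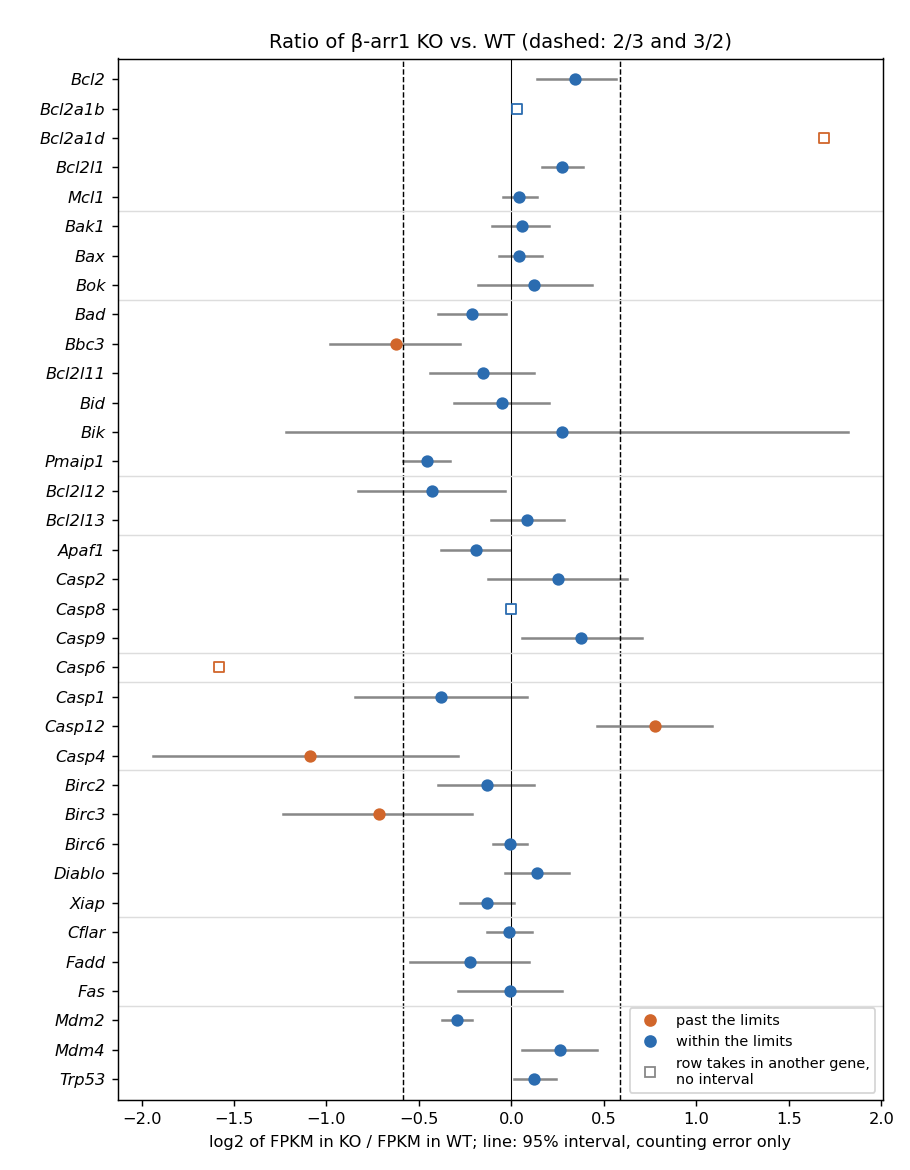
log2 ratio of β-arr1 KO vs. WT for the 35 genes described here (x axis), with 95% intervals from counting error as horizontal lines and dashed lines at 2/3 and 3/2. Orange marks genes past the limits, open squares mark the 4 genes whose row takes in a neighbouring gene and which have no interval, and 29 genes lie between the dashed lines.

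Among the anti-apoptotic genes, Mcl1 and Bcl2l1 had the highest levels. Mcl1, a short-lived guardian of Bak1, was at 65.1 (WT) and 67.2 FPKM (KO), a ratio of 1.03 with an interval of 0.970 to 1.10. Bcl2l1 was at 53.8 (WT) and 65.1 FPKM (KO). Its ratio of 1.21 lay within the limits, and its interval of 1.12 to 1.31, based on an estimated 1123 and 1412 fragments, left out 1. Bcl2 itself was far lower, at 4.96 (WT) and 6.32 FPKM (KO), a ratio of 1.27 (interval, 1.10 to 1.48). None of these 3 genes was past the limits, and for Mcl1 no difference was detectable at this depth. Bcl2l2 has no row under its own symbol in the join. Its annotated position on chromosome 14 of mm9 (the build of all row coordinates here), from 55502214 to 55507071, lies, but for its first bases, within a row named Pabpn1 that begins at 55502262, at 82.4 and 84.1 FPKM.

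The Bcl2a1 genes encode A1, an anti-apoptotic protein of immune cells, from several nearly identical copies on chromosome 9. Their coding sequences are shown because reads from one copy can fit another. Over 519 coding bases, Bcl2a1a, Bcl2a1b and Bcl2a1d differ at 12 positions, and 6 of these fall in the first 60 bases. The coding starts of the GENCODE transcripts on NCBIM37 are given from base 1, and capitals mark the positions at which the 3 copies are not all the same.
Bcl2a1a: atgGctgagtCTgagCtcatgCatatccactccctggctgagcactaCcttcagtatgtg
Bcl2a1b: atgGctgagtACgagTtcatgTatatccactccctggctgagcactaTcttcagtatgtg
Bcl2a1d: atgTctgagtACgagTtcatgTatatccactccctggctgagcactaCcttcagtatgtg
Of the 420 windows of 100 bases in the Bcl2a1d coding sequence, 237 (56.4%) occur without a difference in Bcl2a1a or Bcl2a1b, and the way Cufflinks divided such reads is not given by the tables. The values of single copies are therefore uncertain.

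Bcl2a1b (NCBI gene 12045) was at 38.6 (WT) and 39.3 FPKM (KO), a ratio of 1.02. Its WT row ran from 88851758 to 89102676 and so also covers nearly all of the annotated Bcl2a1a, from 88851738 to 88857254. The KO row ran on to 89135063, over Mthfs, which the WT table listed apart at 8.90 FPKM. Summed over the joint span of Bcl2a1b, the rows gave 47.5 (WT) and 39.4 FPKM (KO), a ratio of 0.830. The direction at Bcl2a1b thus also depended on the joining of rows. Bcl2a1d (NCBI gene 12047) was at 5.34 (WT) and 17.3 FPKM (KO), which is a ratio of 3.23 (1.69 on the log2 scale). Its row began at 88618126 in WT and at 88583443 in KO. The added stretch holds Gm2382, which the WT table listed apart at 13.7 FPKM and the KO table not at all. Summing the rows within the joint span gave 19.0 (WT) and 17.3 FPKM (KO), a ratio of 0.908. The direction at Bcl2a1d thus turned with the way the rows were joined. A further KO row, 9430037G07Rik at 13.8 FPKM, overlapped the span from outside, and with it the ratio was 1.63.

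The pore-forming effectors hardly differed between the libraries. Bax was the most abundant of all 37 genes, at 150 (WT) and 155 FPKM (KO), a ratio of 1.03 (interval, 0.955 to 1.12). Bak1 was at 32.3 and 33.5 FPKM (interval of the ratio, 0.930 to 1.15). Bok, a relative that can act without BH3-only proteins, was at 14.4 and 15.7 FPKM (interval, 0.883 to 1.35). All 3 rows had the same bounds in both tables. The summed level of the 3 effectors was 1.59 times that of Bcl2, Bcl2l1 and Mcl1 in WT and 1.47 times in KO. Bcl2a1b and Bcl2a1d, whose rows took in neighbouring genes, were left out of that comparison. With them the anti-apoptotic genes summed to 168 (WT) and 195 FPKM (KO), closer to the 197 and 204 FPKM of the effectors.

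Of 7 BH3-only genes, 6 were analysed, and 1, Bbc3, was past the limits. The value in KO was lower for 5 of the 6, as it was for 46.9% of all genes listed in both libraries. For 2 of these 5, Bid and Bcl2l11, the interval held 1, and the ratio of Bad turned above 1 with an overlapping row added. Bbc3 (Puma; NCBI gene 170770), a direct p53 target that can bind every anti-apoptotic relative, was at 11.1 (WT) and 7.22 FPKM (KO). Its ratio of 0.648 lay just below 2/3, with an interval of 0.507 to 0.826 based on an estimated 170 and 115 fragments. With a pseudocount of 1 FPKM the ratio was 0.677, within the limits. The row of Bbc3 on chromosome 7 ran to 16903683 in both tables, from 16894932 in WT and from 16894166 in KO. Pmaip1 (Noxa; NCBI gene 58801), another p53 target, which binds Mcl1, was at 49.7 (WT) and 36.2 FPKM (KO). Its ratio of 0.728 lay within the limits, and its interval of 0.665 to 0.795, based on an estimated 1146 and 863 fragments, left out 1. Of the 6 genes, Pmaip1 and Bad had the highest levels.

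Bad, which growth factor signals inactivate by phosphorylation, was at 42.8 (WT) and 36.8 FPKM (KO), a ratio of 0.862 (interval, 0.758 to 0.980). The end of its row overlapped that of Gpr137, which was at 20.6 and 29.2 FPKM, and the sum of both genes had a ratio of 1.04. Bcl2l11 (Bim) was at 4.76 and 4.28 FPKM (interval of the ratio, 0.737 to 1.09). Bid, the link from caspase 8 to mitochondria, was at 12.1 and 11.7 FPKM (interval, 0.807 to 1.15). For both genes no difference was detectable at this depth. Bik was at 1.09 and 1.31 FPKM from as few as 8 and 10 fragments, and both limits lay inside its interval of 0.430 to 3.53. Bmf, at 0.587 and 0.343 FPKM, was below the minimum.

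A stretch upstream of Bbc3 is shown because Bbc3 is the p53-induced gene of this group that was past the limits. RefSeq promoters (GRCm38.p6), from 250 bases before to 50 bases after a gene start, were searched for the full-site p53 consensus of 20 bases with no spacer. At most 3 mismatches were allowed, none of them in the central C and G of a half-site, and since the consensus is its own reverse complement the search covers both strands. In Bbc3, on the plus strand at chr7:16309466-16309525 of GRCm38.p6, such a match began 97 bases before the start, and capitals mark the match.
Bbc3: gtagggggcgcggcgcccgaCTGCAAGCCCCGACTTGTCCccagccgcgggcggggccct
The promoters of 38 of the 43 genes were in the table, and 2 of the 38 held a match, Bbc3 and Trp53. Among all 27025 genes in it, 441 (1.63%) did. A match describes the letters only, and binding was not measured here.

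Among the other Bcl2-like genes, Bcl2l12 was at 9.33 (WT) and 6.92 FPKM (KO), a ratio of 0.742 (interval, 0.562 to 0.977). Its row overlapped that of Gm15545, at 1.52 (WT) and 5.43 FPKM (KO), and the sum of both rows had a ratio of 1.14. Bcl2l13, a mitochondrial protein with a role in mitophagy, was at 6.30 and 6.69 FPKM (interval, 0.925 to 1.22). The 4 genes Bcl2a1c, Bcl2l10, Bcl2l14 and Bcl2l15 were below 1 FPKM in both libraries. Bcl2a1c was listed at 0.768 FPKM and Bcl2l10 at 0.0991 FPKM in WT only. In KO a row of another name overlapped the position of Bcl2a1c, and with overlapping rows summed its ratio was 80.4. Bcl2l14 was listed at 0.0994 FPKM in KO only, and Bcl2l15 was at 0.0580 and 0.357 FPKM.

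Caspases cut their substrates with a catalytic cysteine that lies in a conserved run of 5 residues. The codons of that run were found once in the coding sequence of 8 of the 8 caspases described here. They are shown for the 3 caspases that were past the limits, to give the identity of the genes compared. Each stretch has 45 bases of the GENCODE coding sequence on NCBIM37, with the 5 codons in capitals.
Casp6: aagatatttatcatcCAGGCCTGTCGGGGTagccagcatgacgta
Casp4: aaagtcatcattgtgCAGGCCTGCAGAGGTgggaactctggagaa
Casp12: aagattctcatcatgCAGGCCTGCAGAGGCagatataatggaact

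Casp6 was far lower in KO by its deposited row. Casp6 (NCBI gene 12368), an executioner that cleaves lamins, was at 28.9 (WT) and 9.66 FPKM (KO). The ratio of 0.334 and the log2 ratio of -1.58 were the lowest of the 37 genes.

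The Casp6 row on chromosome 3 ended at 129617020 in both tables, but it began at 129581540 in WT and at 129604343 in KO. GENCODE places Casp6 on the plus strand from 129604343 to 129617021, and the gene for a secreted phospholipase, Pla2g12a, on the same strand from 129581524 to 129598739, 5603 bases upstream. The KO table listed Pla2g12a apart at 12.5 FPKM, and the WT table listed it not at all. The WT value under the name of Casp6 thus covers the span of both genes, and the KO value that of Casp6 alone. The 2 KO rows summed to 22.2 FPKM, and the ratio over the joint span was 0.768, within the limits. How much of the WT value came from each gene is not given by the table.

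**Figure D3:**
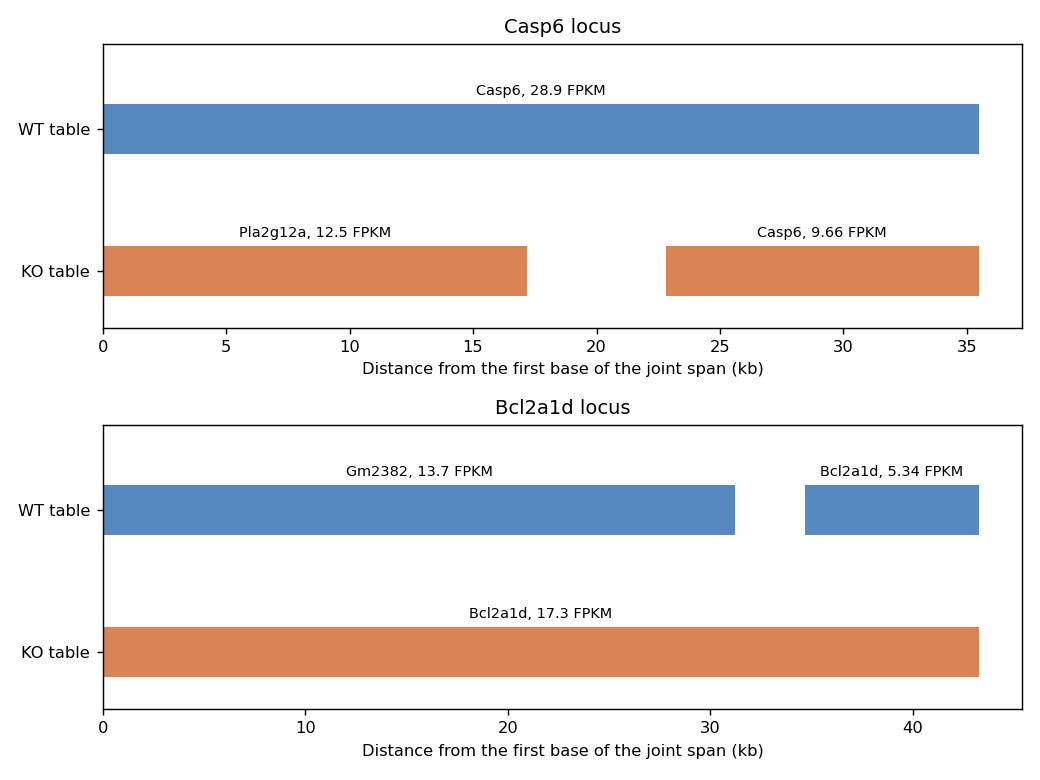
Span of the deposited rows at the Casp6 locus and at the Bcl2a1d locus, in kb from the first base of the joint span (x axis), for the WT table (blue) and the KO table (orange), with the FPKM of each row. At Casp6 the WT table has 1 row of 28.9 FPKM where the KO table has rows of 12.5 and 9.66 FPKM. At Bcl2a1d the WT table has rows of 13.7 and 5.34 FPKM where the KO table has 1 row of 17.3 FPKM, and the wider KO row of 9430037G07Rik is not drawn.

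With rows within the joint span summed for every gene, a choice made after seeing these rows, 4 of the 37 genes were past the limits, and 16.9% of all genes were. Bbc3, Birc3 and Casp4 remained below 2/3, with 7.81% of all genes, and Casp12 above 3/2, with 9.06%. With all overlapping rows summed, Bcl2a1d, Casp12 and Cflar were above 3/2, with 8.64% of all genes, and Bbc3, Birc3 and Casp4 below 2/3, with 7.46%. Besides Bcl2a1b, Bcl2a1d and Casp6, the row of Casp8 took in a neighbour, and in KO it spanned Gm20257 and Als2cr12, at 1.92 and 0.0746 FPKM in WT.

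The initiator caspases and Apaf1 lay within the limits. Casp8, the initiator of the death receptor route, was at 20.2 (WT) and 20.1 FPKM (KO), a ratio of 0.997. Casp9, the initiator held by the apoptosome, was at 3.98 (WT) and 5.17 FPKM (KO), a ratio of 1.30 (interval, 1.04 to 1.63). In WT the Casp9 row overlapped a row of Cela2a at 1.45 FPKM, and with that row added the ratio was 0.951. Apaf1, the scaffold of the apoptosome, was at 8.56 and 7.49 FPKM, with a ratio of 0.875 (interval, 0.769 to 0.994). Casp2 was at 3.47 and 4.12 FPKM (interval of the ratio, 0.915 to 1.54). None of these 4 genes was past the limits, and the direction of Casp9 turned with the way the rows were joined.

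The inflammatory caspases lie next to each other on chromosome 9, and Casp4 and Casp12 were past the limits in opposite directions. Casp1 (NCBI gene 12362), which matures interleukin 1β, was at 7.39 (WT) and 5.67 FPKM (KO), a ratio of 0.767 (interval, 0.556 to 1.06). Casp4 (NCBI gene 12363; caspase 11), the sensor of intracellular lipopolysaccharide, ran from 5308860 to 5336791 in both tables. Its level was 2.58 (WT) and 1.21 FPKM (KO). The ratio was 0.470 and the log2 ratio -1.09, and an estimated 41 and 20 fragments gave an interval of 0.261 to 0.820. Casp12 (NCBI gene 12364), a caspase of the endoplasmic reticulum in rodents, was at 6.24 (WT) and 10.7 FPKM (KO). The ratio was 1.71 and the log2 ratio 0.77, with an interval of 1.38 to 2.12 based on an estimated 141 and 250 fragments. The rows of Casp12 ended at 5373034 in both tables and began at 5345476 in WT and 5345443 in KO. No other row overlapped Casp1, Casp4 or Casp12. Casp14, a caspase of the skin, was at 0.873 and 0.894 FPKM, below the minimum.

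Of the inhibitor of apoptosis (IAP) genes, Birc3 alone was past the limits. Birc3 (cIAP2; NCBI gene 11796), a ubiquitin ligase of the TNF receptor complex that NF-κB induces, was at 3.40 (WT) and 2.07 FPKM (KO). The ratio was 0.608 and the log2 ratio -0.72, with an interval of 0.425 to 0.864 based on an estimated 87 and 54 fragments, and with a pseudocount of 1 FPKM the ratio was 0.697. Its row on chromosome 9 ended at 7873170 in both tables and began at 7848548 in WT and 7848701 in KO. Its neighbour Birc2 (cIAP1) was at 9.15 and 8.34 FPKM (interval of the ratio, 0.760 to 1.09). Xiap, a direct inhibitor of caspases, was at 12.7 and 11.6 FPKM (interval, 0.825 to 1.01), and the giant IAP Birc6 at 13.0 and 12.9 FPKM (interval, 0.934 to 1.06). Diablo (Smac), which displaces IAPs from caspases, was at 17.9 and 19.6 FPKM (interval, 0.976 to 1.24).

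The 3 genes of the death receptor route lay within the limits, and Fas and Cflar had nearly equal values in both libraries. Fas was at 17.4 (WT) and 17.3 FPKM (KO) (interval of the ratio, 0.820 to 1.21). Its adaptor Fadd was at 4.99 and 4.26 FPKM (interval, 0.684 to 1.07). Cflar (c-FLIP), which blocks caspase 8 at the receptor, was at 17.9 and 17.8 FPKM (interval, 0.911 to 1.08). In KO the wider row of Casp8 also spanned Cflar. In each of these intervals neither 2/3 nor 3/2 was included.

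Trp53 and Mdm2 were both abundant. Trp53 (p53; NCBI gene 22059) was at 41.5 (WT) and 45.3 FPKM (KO), a ratio of 1.09 (interval, 1.01 to 1.18). Mdm2 was at 97.1 (WT) and 79.2 FPKM (KO). Its ratio of 0.816 lay within the limits, with an interval of 0.771 to 0.863 based on an estimated 2679 and 2256 fragments. Mdm4, a relative of Mdm2 that also inhibits p53, was at 11.6 and 13.9 FPKM, with a ratio of 1.20 (interval, 1.04 to 1.38). Mdm2 was thus lower in KO while Trp53 and Mdm4 were higher, and the ratio of Mdm2 to Trp53 was 2.34 in WT and 1.75 in KO. The bounds of Mdm2 and Mdm4 differed slightly between the tables, and those of Trp53 were the same.

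The 32 further p53 target genes on a fixed list had 30 analysed members, of which 2 were above 3/2, 1 was below 2/3 and 27 lay between. The value in KO was lower for 21 of the 30 (70.0%), and for 46.9% of all genes listed in both libraries. Among the 21, the interval held 1 for Sesn1, Zmat3, Btg2, Plk2, Tnfrsf10b, Polk and Ercc5, and that of Tnfrsf23 ended at 1.000. Among the 9 others it held 1 for all but Fdxr and Ckap2. The median ratio was 0.923. Cdkn1a (p21), which halts the cell cycle, was at 386 (WT) and 344 FPKM (KO), a ratio of 0.893. Rps27l, a ribosomal protein paralog, was at 277 and 293 FPKM. Fdxr, a mitochondrial reductase, was at 3.46 and 5.87 FPKM, with a ratio of 1.70 (interval, 1.21 to 2.39). Ckap2, a spindle protein, had a ratio of 1.50, just above the limit, at 21.5 and 32.3 FPKM, but its KO row took in Nek3, and over the joint span the ratio was 1.37. Dram1, an autophagy gene named here after its values were seen, was at 4.21 and 2.75 FPKM, a ratio of 0.653. Of 26 regulators of p53, 24 were analysed, and 0 of the 24 were past the limits, from 0.740 to 1.32. Among them, Trim28 was at 54.7 and 54.4 FPKM and Rchy1 at 28.9 and 28.6 FPKM.

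Of 22 death receptors, ligands and adaptors, 16 were analysed, with 0 above 3/2 and 2 below 2/3. Ripk3, the kinase of necroptosis, was at 13.4 (WT) and 8.26 FPKM (KO), a ratio of 0.617 (interval, 0.496 to 0.764). The WT table gave Rnf31 at 5.44 FPKM and its neighbour Irf9 at 10.6 FPKM, and the KO table had a single row there, Irf9 at 12.8 FPKM. Over both rows the ratio was 0.798, within the limits. The receptors with the highest levels were Tnfrsf12a, at 179 and 226 FPKM, and Tnfrsf1a, at 71.8 and 63.4 FPKM. Of 22 genes of mitochondrial release, 20 were analysed, 2 of them above 3/2 and 2 below 2/3. Vdac3, a porin of the outer membrane, was at 23.3 and 35.6 FPKM, a ratio of 1.53, and Sept4, whose ARTS isoform antagonises Xiap, was at 10.1 and 15.5 FPKM, a ratio of 1.54. Both genes below 2/3, Htra2 and Vdac1, had no row in KO, where a row of another name overlapped their positions. Vdac1 was at 149 FPKM in WT, and the overlapping row, 9530068E07Rik, was at 160 (WT) and 308 FPKM (KO), so that the ratio over both rows was 0.997, within the limits. Htra2 was at 22.6 FPKM in WT, and the row over it in KO, Loxl3 at 90.8 FPKM, was not listed in WT. Over the rows of Htra2 and Loxl3 the ratio was 4.02, so that the direction at Htra2 turned with the joining of rows. Tmbim6 was at 162 and 164 FPKM and Ghitm at 105 and 116 FPKM. Bnip2, named after its values were seen, was within the limits at a ratio of 0.753, but its KO row took in Gtf2a2. Over the joint span the ratio of Bnip2 was 0.557, below 2/3.

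Of 17 caspase substrates and execution genes, 16 were analysed, with 1 above 3/2 and 2 below 2/3. Dffa, the inhibitor of the caspase-activated nuclease, was at 4.41 and 6.81 FPKM, with a ratio of 1.55 (interval, 1.19 to 2.02), while Dffb, the nuclease, was at 1.80 FPKM in WT and had no KO row. Dffb is named after its value was seen. Acin1 was at 40.6 and 21.0 FPKM, a ratio of 0.516, and over the joint span with 4930579G18Rik the ratio was 0.744. Vim was at 3224 and 3745 FPKM and Gsn at 296 and 263 FPKM. Of 16 inflammasome genes, 9 were analysed, and 1, Aim2, was below 2/3, at 2.85 and 1.72 FPKM, and is named for that reason. Txnip was at 44.0 and 34.9 FPKM and Nek7 at 31.4 and 32.2 FPKM. Over all 114 analysed genes of these lists, 13 (11.4%) were past the limits, and 17.8% of all genes were.

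**Figure D4:**
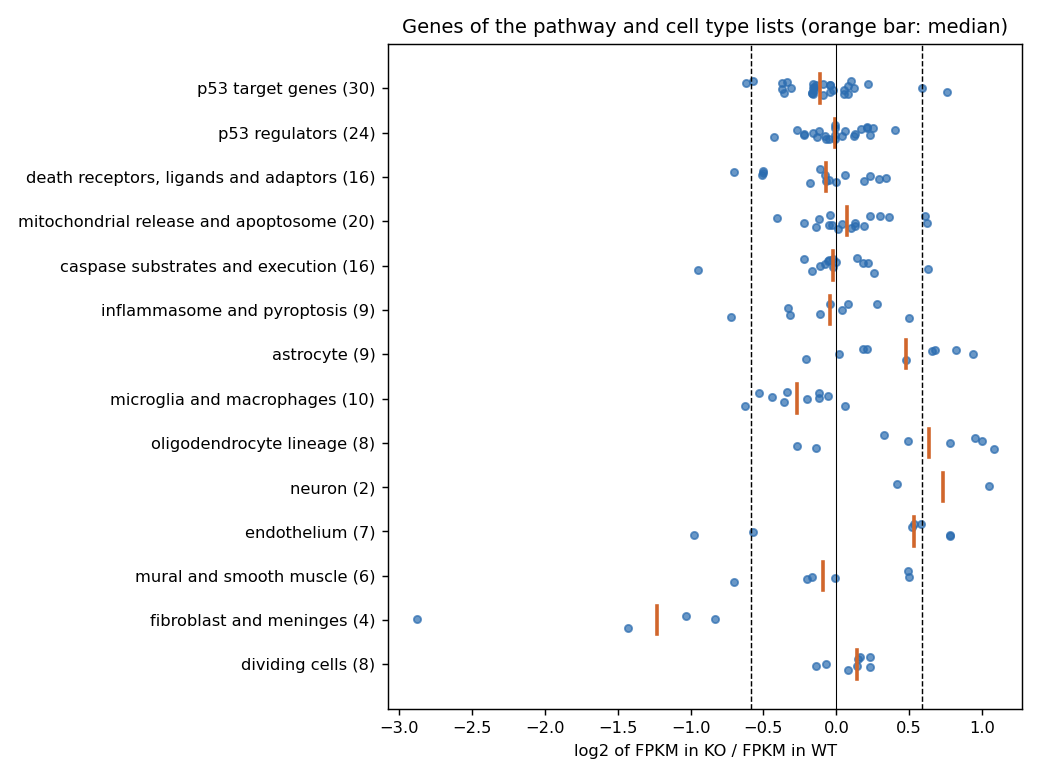
log2 ratio of β-arr1 KO vs. WT (x axis) for the genes of the 6 pathway lists and of the cell type marker lists at 1 FPKM or more, 1 point per gene, with the median as an orange bar and the number analysed in parentheses. Dashed lines stand at 2/3 and 3/2, and the 4 genes listed in 1 library only are not drawn. The medians of the 6 pathway lists lie between -0.12 and 0.07, that of the fibroblast genes is the lowest at -1.23, and those of the astrocyte and oligodendrocyte lineage genes lie at 0.48 and 0.64.

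Markers of other cells moved with the libraries as well, and in bulk RNA fewer cells of a type and less RNA per cell cannot be told apart. Astrocyte markers were present, Gfap at 189 and 192 FPKM, and 8 of 9 were higher in KO, with Aqp4 at 7.05 and 13.5 FPKM, S100b at 29.3 and 51.7 FPKM and Aldoc at 13.5 and 21.6 FPKM. Gjb6 was not listed in WT. Of 10 microglia and macrophage markers, 9 were lower in KO, and the 10 summed to 990 (WT) and 740 FPKM (KO). The highest were Tyrobp, at 317 and 219 FPKM, and C1qa, at 246 and 181 FPKM. Cd68, at 185 and 119 FPKM, was the 1 marker of these cells past the limits. Among the 9, the interval held 1 for Aif1, Tmem119 and P2ry12. The other microglia and macrophage marker, Cx3cr1, was at 24.8 and 25.9 FPKM. Casp1, Casp4, Birc3 and the Bcl2a1 genes are also expressed by such cells, and the part of these cells in their values was not tested. All 4 analysed fibroblast markers were below 2/3, with sums of 607 (WT) and 315 FPKM (KO). These were Col1a1, at 420 and 237 FPKM, Col1a2, at 92.3 and 34.3 FPKM, Col3a1, at 88.3 and 43.3 FPKM, and Dcn, at 6.11 and 0.831 FPKM.

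Oligodendrocyte lineage markers summed to 106 and 152 FPKM, with 6 of 8 higher in KO, among them Olig1 at 32.6 and 56.0 FPKM, Olig2 at 6.19 and 13.1 FPKM, Pdgfra at 3.12 and 6.03 FPKM and Cspg4 at 24.0 and 33.8 FPKM. Mural and smooth muscle genes summed to 5734 and 5399 FPKM, mostly Acta2 at 2478 and 2469 FPKM and Tagln at 2915 and 2597 FPKM. Of the 6 analysed, 4 were lower in KO, among them Rgs5 at 5.83 and 3.58 FPKM. The other 2 were higher, Myh11 at 40.4 and 56.6 FPKM and Des at 29.7 and 41.9 FPKM. Of 7 endothelial markers, 5 were higher in KO, such as Pecam1 at 3.03 and 5.22 FPKM and Flt1 at 4.07 and 6.97 FPKM, and Cdh5 was lower at 31.8 and 16.1 FPKM. Of 10 neuronal markers, 2 reached 1 FPKM, Tubb3 at 44.7 and 59.8 FPKM and Prox1 at 1.05 and 2.17 FPKM, and 0 of 7 lymphocyte markers did. All 8 markers of dividing cells lay within the limits, from 0.907 to 1.18, with Cdk1 at 37.9 and 44.5 FPKM and Top2a at 25.2 and 28.3 FPKM. How these cell types contributed to the values of the Bcl2 family, caspase and p53 genes was not tested.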

How the data were processed

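Astrocytes of the DG were sequenced as 1 library per genotype. According to the paper the authors aligned paired reads to mm9 with TopHat (1.4.0 in the submitters' processing notes) and ran Cufflinks, and the annotation is not given in the sources used here. For each library the authors deposited a symbol, a locus and an FPKM value for every gene, scaled for transcript length and library size, without read counts or bounds of error. Strand is not stated for the libraries, so that overlapping genes cannot be told apart.

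The tables were joined by symbol, the highest of rows sharing a symbol was kept, and genes absent from either table were set to 0 there. Starts had 1 added, since the KO row of Casp6 then begins at the annotated base. The minimum was 1 FPKM in the higher library, and the ratio was taken without a pseudocount. Depth was estimated from genes under 0.15 FPKM with 1 GENCODE (vM1, NCBIM37, the same assembly as mm9) transcript over 1000 bases, of which 70.7% in WT and 70.8% in KO lay within 5% of a step of 1 to 3 fragments. Fragments per gene used the longest transcript. The steps were tested on simulated data. For calls and intervals these held only genes listed in both libraries at a mean of 5 FPKM or more. Rows that take in a neighbour and genes of lower level were not covered. Two-sided exact Clopper-Pearson intervals at 95% hold counting error only.

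Some genes of the rule are included in the counts but not reported here. Every other gene of the rule was described, and of each fixed list the 2 highest in level and up to 5 most changed at 5 FPKM or more. The genes, lists and limits were chosen with earlier results of these data known. Alternatives concerned the minimum, the pseudocount, the scaling, the joining of rows and the limits. The tools were Python 3.11.15 with scipy 1.17.1, numpy 2.4.6 and pandas 2.3.3, and matplotlib 3.10.9 for plots.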

Additional observations from a re-analysis of the deposited data

How the results depend on the processing

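The number of genes of the Bcl2 family, caspases and p53 core past the limits was 6 as reported. It was 11 with no minimum, where 29.6% of all genes were past the limits, 3 with limits of 2 and 1/2 and 1 among genes whose bounds did not differ (Casp4). The number of genes of the pathway lists past the limits was 13 as reported, where 17.8% of all genes were. It was 20 with a minimum of 0.1 FPKM (26.0% of all genes) and 21 with no minimum (29.6% of all genes). With a pseudocount of 1 FPKM it was 8 (13.0% of all genes), and with limits of 2 and 1/2 it was 4 (9.20% of all genes). The cause of these differences was not tested, apart from the number of genes that each minimum lets in. The count for the pathway lists was not redone with overlapping rows or rows within the joint span summed. Nor was it redone among genes whose bounds did not differ. The median log2 ratio of the genes stayed between -0.030 and 0.044 under the alternatives tried. Of 296 ratios of single genes under 8 alternatives, 290 kept their side of the limits. That count includes ratios that crossed 1 within the limits. With overlapping rows summed these were Bad (1.04), Bcl2l12 (1.14), Casp9 (0.951) and Bcl2a1b (0.830). Summing rows that share a symbol, 1 of the 8, left the ratios of all 37 genes unchanged. The ratios of Bbc3 (0.677) and Birc3 (0.697) came within the limits with a pseudocount of 1 FPKM. That of Casp6 (0.768) did so with overlapping rows or rows within the joint span summed. The ratio of Bcl2a1d turned from 3.23 to 0.908 with rows within the joint span summed. The ratio of Cflar turned from 0.992 to 2.12 with overlapping rows summed, an alternative that adds the KO row of Casp8 to that of Cflar. Rescaling the libraries in 3 ways changed no call among the 37 genes. No paired analysis was possible because each genotype has 1 library. Leaving out a replicate was not possible for the same reason. Depth limits the genes of few fragments, such as Bik, whose interval held both limits.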
